A study of Chlorocebus sabaeus with 10 samples.

Results

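The 10 genes described here make and modify nicotinamide adenine dinucleotide (NAD) or remove its precursor nicotinamide. They were chosen by symbol from 23352 distinct gene symbols in the transcript table of 10 vervet monkey livers: NMRK1, NMRK2, NAMPT, NAPRT, NADSYN1, NMNAT1, NMNAT3, NADK, NADK2 and NNMT. Each had 1 annotated transcript, so no choice among isoforms was needed. The list was drawn up with the diet difference of NMRK2 in these livers already known. No p-value of that difference is therefore printed, and counts of members that include NMRK2 are no support for it.

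Liver biopsies came from 10 female vervet monkeys (Chlorocebus sabaeus), all kept on chow before the study. They were fed a high fructose (HFr) diet (n = 5 animals) or chow (n = 5 animals) for 6 weeks. Polyadenylated RNA was sequenced as 1 library per animal, and reads were estimated per transcript on the vervet assembly ChlSab1.1. A biopsy mixes hepatocytes with other liver cells, so fewer cells of a type and less RNA per cell cannot be told apart.

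NAD carries electrons in glycolysis, fatty acid oxidation and the respiratory chain, and it is broken down by sirtuins and other enzymes that use it as a substrate. Liver makes it from tryptophan through the kynurenine pathway, from nicotinic acid through NAPRT and NADSYN1, and by salvage of nicotinamide through NAMPT or of nicotinamide riboside through the kinases NMRK1 and NMRK2. The adenylyl transferases NMNAT1 and NMNAT3 complete the dinucleotide, NADK and NADK2 add the phosphate of NADP, and NNMT methylates nicotinamide so that it leaves the salvage route.

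Libraries held 2977282 to 4992505 estimated counts, of which 34.7% to 73.6% came from mitochondrial transcripts. The 10 hepatocyte markers, among them albumin, summed to between 39029 and 79811 normalized counts in every animal. Here a normalized count (CPM) is an estimated count relative to its library's size after scaling by the trimmed mean of M values. Levels were compared between animals and not between genes, since no transcript lengths were used here. Of the 7948 transcripts with enough counts for edgeR's quasi-likelihood test, 341 (4.29%) had an unadjusted p under 0.05 between the diets, 164 (2.06%) with higher and 177 (2.23%) with lower levels on the HFr diet, and 0 (0%) had an adjusted p under 0.05. DESeq2 gave 2 with an adjusted p under 0.05, and limma and voom gave 0.

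NMRK2 was the member with the widest separation between the diets. It stood about 3.04-fold higher on the HFr diet, with every HFr animal above every chow animal. NADK2, the mitochondrial NAD kinase, was lower on the HFr diet at 0.712 of its chow level and had an unadjusted p under 0.05. For NMRK1, NAMPT, NAPRT, NADSYN1, NMNAT3, NADK and NNMT the difference between the diets did not pass this threshold. Among the 8 tested members other than NMRK2, HFr levels were higher for 3 and lower for 5, and NADK2 was the 1 past the threshold. Over all transcripts 4.29% passed it in either direction and 2.23% with lower levels. The median log2 fold change of these 8 members was -0.03, against -0.00075 over all tested transcripts. No member passed adjustment over all transcripts in edgeR, limma, voom or DESeq2.

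**Figure D1:**
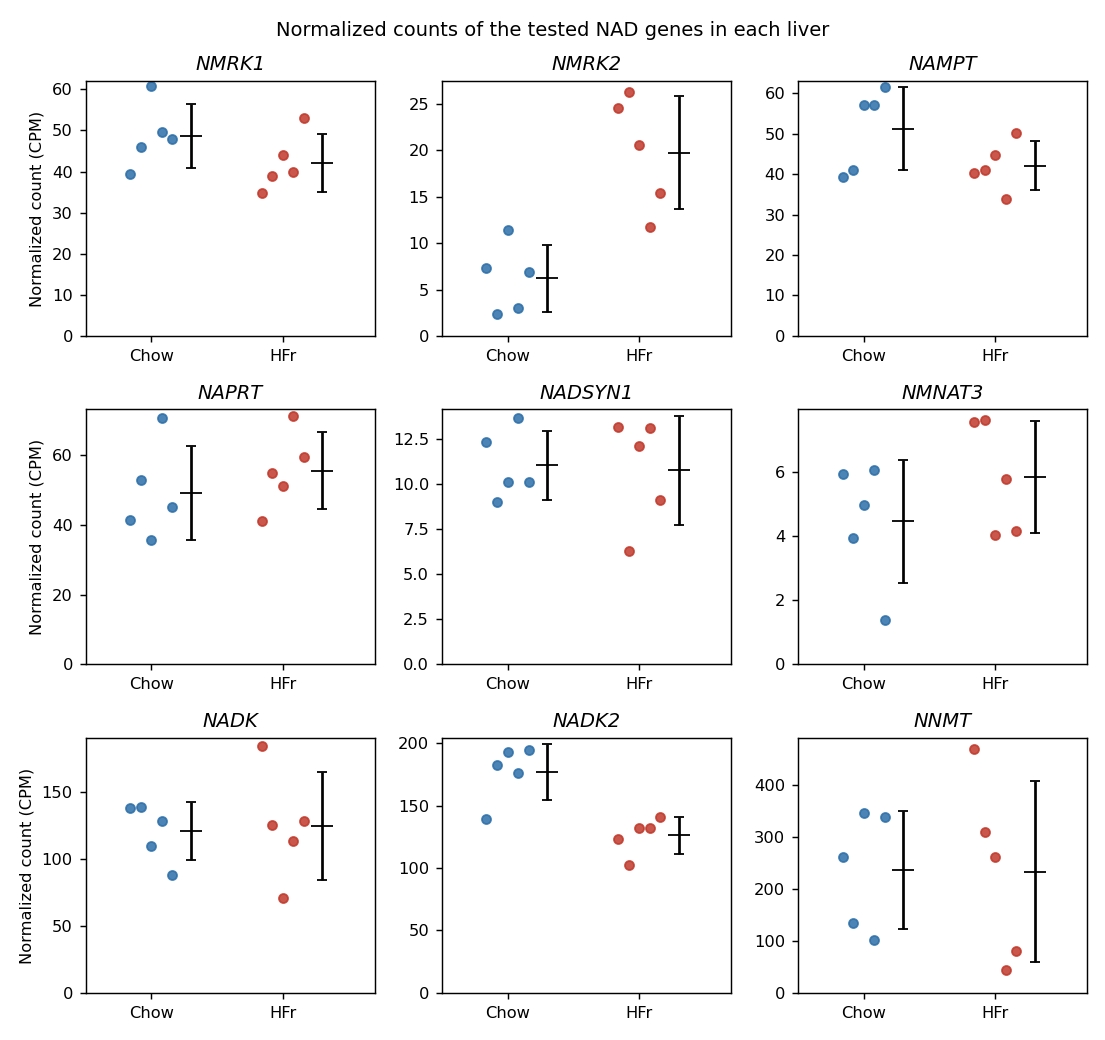
Normalized counts (CPM, y axis from 0) of the 9 tested genes in each chow (blue) and HFr (red) animal, with the mean and SD (n = 5 per diet) in black beside the points. NMRK2 shows no overlap between the diets at this scaling. NADK2 overlaps in a single pair of animals (140.5 in HFr replicate 5 against 139.6 in chow replicate 1), and the other genes overlap widely.

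The nicotinamide riboside kinases phosphorylate the riboside taken up from food or blood. NMRK2 (ENSCSAG00000010882), known mainly from muscle, lies on chromosome 6 from 3688166 to 3697960 on the plus strand. In HFr replicates 1 to 5 it had 24.5, 26.2, 20.6, 11.8 and 15.4 normalized counts. In chow replicates 1 to 5 it had 7.31, 2.41, 11.4, 3.03 and 6.89. The lowest HFr animal, replicate 4, thus stood just above the highest chow animal, replicate 3. The order of these 2 animals depends on the scaling (TMM factors 0.907 and 1.18). Per total count, HFr replicate 4 (53 of 4992505 estimated counts) stood below chow replicate 3 (62 of 4663431). The means were 19.7 ± 6.07 on the HFr diet and 6.20 ± 3.63 on chow (SD, n = 5 each), which is 1.60 on the log2 scale (standard error 0.36). These values rest on 51 to 117 estimated counts per HFr animal and 6 to 62 per chow animal. Over all tested transcripts the diets did not overlap for 0.541%, which is given as background only, since NMRK2 was chosen for its diet difference.

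Leaving out single animals moved the log2 fold change of NMRK2 between 1.37, without chow replicate 2, and 1.99, without chow replicate 3. With the mitochondrial percent of each library as a covariate it was 1.61. These values describe a gene chosen for its diet difference and are no support for it. Of the 12 skeletal muscle markers listed beside this gene, 11 were in the table, 5 of these had no count in any animal (CKM, MYH2, MYH7, NEB and MB), and all 11 together summed to 0.754 to 2.44 normalized counts on the HFr diet and 1.01 to 2.97 on chow. The muscle markers were thus near 0 in livers of both diets, and their summed range overlapped between them. With so few counts, 0 of these markers could be tested between the diets. The part of muscle tissue in the NMRK2 levels was not tested.

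NMRK1 (ENSCSAG00000007978, chromosome 12 from 86112271 to 86140449, minus strand), the more widely expressed of these kinases, did not follow NMRK2. It ranged from 34.7 to 53.0 normalized counts on the HFr diet and from 39.3 to 60.7 on chow, and its log2 fold change was -0.21 (SE 0.17, edgeR unadjusted p = 0.244). Because the ratio of the 2 kinases within an animal does not depend on how libraries are scaled, the NMRK2 counts per NMRK1 count were also compared, as were the other ratios given here, after the values had been seen. The ratio was 0.707, 0.676, 0.468, 0.296 and 0.291 in HFr replicates 1 to 5. It was 0.186, 0.0524, 0.187, 0.0612 and 0.144 in chow replicates 1 to 5. The lowest HFr ratio exceeded the highest chow ratio. This describes the gene that was chosen for its diet difference and is no separate test of it.

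**Figure D2:**
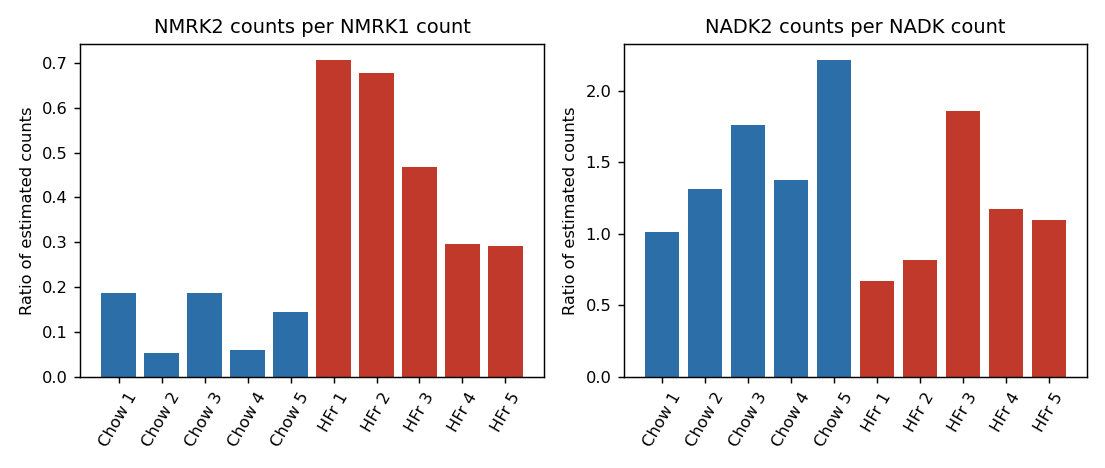
Ratio of estimated counts of 2 genes within each animal (y axis from 0), for NMRK2 per NMRK1 (left) and NADK2 per NADK (right), chow in blue and HFr in red. The NMRK2 to NMRK1 ratio stays at or below 0.187 on chow and at or above 0.291 on the HFr diet, whereas the NADK2 to NADK ratio overlaps between the diets.

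The NAD kinases make NADP, the cofactor of reductive synthesis and antioxidant defense, with NADK in the cytosol and NADK2 in mitochondria. NADK2 (ENSCSAG00000017026) lies on chromosome 4 from 35042814 to 35076288 on the minus strand. It had 123, 102, 132, 132 and 140.5 normalized counts in HFr replicates 1 to 5. Chow replicates 1 to 5 had 139.6, 182, 193, 176 and 194. Every HFr animal had less NADK2 than the average chow animal, and the single chow animal within the HFr range was replicate 1.

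The mean of NADK2 was 126 ± 14.6 normalized counts on the HFr diet and 177 ± 22.2 on chow (SD, n = 5 each), which gave -0.49 on the log2 scale (SE 0.17). The unadjusted p was 0.0108 and the adjusted p was 0.9996 from edgeR. A two-sided exact permutation test on the normalized counts gave p = 0.0159 where the smallest possible p is 0.00794. This test used the same values as edgeR and is no separate evidence. It was run on all members except NMRK2, and the others had exact permutation p from 0.119 (NAMPT) to 0.976 (NNMT). The members were chosen with earlier results of these data known. With at least 327 estimated counts in every animal, NADK2 was among the better counted members. Its unadjusted p was 0.05 or more under 1 of 25 alternatives, scaling by library size alone, where the log2 fold change was -0.51 (edgeR unadjusted p = 0.162). The adjusted p ranged from 0.472 to 1 over the alternatives.

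NADK (ENSCSAG00000000700, chromosome 20 from 129769822 to 129803817, plus strand) did not share this pattern. It had 184, 125, 71.0, 113 and 128 normalized counts in HFr replicates 1 to 5 and 138, 139, 109, 128 and 87.8 in chow replicates 1 to 5. HFr replicates 1 and 3 were the highest and the lowest of all 10 animals. The log2 fold change was 0.05 (SE 0.23, edgeR unadjusted p = 0.845) and turned to -0.14 without HFr replicate 1 and to -0.05 without chow replicate 5. The number of NADK2 counts per NADK count lay between 0.669 and 1.86 in HFr animals and between 1.01 and 2.21 in chow animals. The lower NADK2 of the HFr animals was therefore not separated from chow when it was set against NADK in the same library.

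NAMPT (ENSCSAG00000011423, chromosome 21 from 75158596 to 75196025, minus strand) encodes the rate-limiting enzyme of nicotinamide salvage. It had 40.3, 41.0, 44.8, 33.8 and 50.3 normalized counts in HFr replicates 1 to 5. Chow replicates 1 to 5 had 39.3, 41.0, 57.0, 57.1 and 61.6. Every HFr animal had less NAMPT than the chow mean of 51.2, but chow replicates 1 and 2 lay within the HFr range. The log2 fold change of -0.28 (SE 0.18, edgeR unadjusted p = 0.145) kept its sign under all 25 alternatives, with a range from -0.36 to -0.21, and its unadjusted p was 0.05 or more in each. NAMPT is also abundant in neutrophils. The 10 neutrophil and macrophage markers summed to 301 to 418 normalized counts on the HFr diet and 278 to 385 on chow, most of it from CD14, which hepatocytes also express. Among the neutrophil genes of the list, MPO was at 0 in all animals except HFr replicate 3, and CXCR2 in all except chow replicate 3. S100A8, S100A9 and CSF3R had mean levels of 4.04, 3.79 and 6.80 normalized counts on the HFr diet and 5.08, 4.85 and 8.25 on chow. All 3 were highest in chow replicate 3, at 21.5, 16.9 and 19.3 normalized counts, an animal with 57.0 normalized counts of NAMPT. Chow replicates 4 and 5, with 57.1 and 61.6 of NAMPT, had only 1.01 and 1.84 of S100A8 and 3.03 and 6.43 of CSF3R. CSF3R, the 1 of these neutrophil genes with enough counts, had a log2 fold change of -0.38 (SE 0.48, edgeR unadjusted p = 0.443). Of the 5 tested markers in the list, 4 were higher on the HFr diet, among them CD163, MARCO and VSIG4 (log2 fold changes 0.12, 0.40 and 0.31). The part of these cells in the NAMPT levels was not tested.

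The nicotinic acid route starts with NAPRT (ENSCSAG00000009016, chromosome 8 from 137792993 to 137798658, minus strand). It had 41.1, 55.0, 51.2, 71.3 and 59.4 normalized counts in HFr replicates 1 to 5 and 41.4, 53.0, 35.8, 70.8 and 45.0 in chow replicates 1 to 5. Both diets thus spanned nearly the same range, and the log2 fold change was 0.19 (SE 0.21, edgeR unadjusted p = 0.384). NAPRT counts per NAMPT count, compared between animals only, lay between 1.02 and 2.11 in HFr animals and between 0.627 and 1.29 in chow animals. The diets overlapped in this ratio, which was lowest in chow replicates 3 and 5 (0.627 and 0.731).

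NADSYN1 (ENSCSAG00000009433, chromosome 1 from 3188348 to 3238435, minus strand), the synthetase that amidates the last intermediate of the nicotinic acid and tryptophan routes, had 6.28 to 13.2 normalized counts in HFr animals and 8.98 to 13.6 in chow animals. Its log2 fold change of -0.04 (SE 0.24, edgeR unadjusted p = 0.869) changed sign under 5 alternatives. At 22 to 59 estimated counts per animal, a small difference in this gene would not have been detectable.

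Of the adenylyl transferases, which join the mononucleotide to ATP, NMNAT3 (ENSCSAG00000011165, chromosome 15 from 50880235 to 50991281, plus strand) was counted at a low level and NMNAT1 hardly at all. NMNAT3 had 7.54, 7.63, 4.03, 5.78 and 4.15 normalized counts in HFr replicates 1 to 5 and 5.94, 3.94, 4.95, 6.06 and 1.38 in chow replicates 1 to 5. Its log2 fold change was 0.36 (SE 0.34, edgeR unadjusted p = 0.301), and it was 0.17 without chow replicate 5, the animal with only 3 counts.

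NMNAT1 (ENSCSAG00000000774, chromosome 20 from 121790988 to 121797025, minus strand), the nuclear form, was the 1 member without enough counts to be tested. Its estimated counts added up to 6 on either diet, with none in HFr replicate 5 and chow replicate 2. A count of 0 allows a level of up to 0.594 normalized counts in the former library and 0.657 in the latter (3 counts, counting error only), so no difference between the diets was detectable for this gene.

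NNMT (ENSCSAG00000002757, chromosome 1 from 105690085 to 105713010, plus strand) varied most among the HFr animals of all 9 tested members. HFr replicates 1 to 5 had 469, 309, 261, 44.4 and 80.5 normalized counts. Chow replicates 1 to 5 had 261, 134, 347, 102 and 337. The highest and the lowest animals, which differed 10.6-fold, were both on the HFr diet. The coefficient of variation reached 74.7% among HFr animals and 48.2% among chow animals, where it was 58.6% for NMRK2. For NADK2 these values were 11.6% and 12.6%. The log2 fold change was -0.02 (SE 0.53, edgeR unadjusted p = 0.964) and moved between -0.45 and 0.24 as single animals were left out. A difference as large as the one of NADK2 could therefore not have been separated from the spread of NNMT.

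Fibroblasts and stellate cells can also express NNMT. The 8 markers of these cells summed to 408, 377, 407, 278 and 226 normalized counts in HFr replicates 1 to 5 and to 835, 236, 179, 297 and 720 in chow replicates 1 to 5. Within the HFr diet, the 3 animals with the most NNMT (replicates 1, 2 and 3) also had the 3 highest marker sums. Within chow, replicate 3 had the highest NNMT and the lowest marker sum, while replicates 1 and 5 were high in both. Of the 7 markers tested, 6 were lower on the HFr diet. ACTA2, an actin of contractile stellate and smooth muscle cells, was the 1 with an unadjusted p under 0.05. Its log2 fold change was -1.57 (SE 0.49, edgeR unadjusted p = 0.00646, adjusted p = 0.9996). Over all transcripts 4.29% passed this threshold in either direction and 2.23% with lower levels. The part of fibroblasts and stellate cells in the spread of NNMT was not tested. NNMT overlaps a microRNA gene (ENSCSAG00000020084) on the same strand, which took at most 7.05 estimated counts in an animal.

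Members were then compared with each other across the 10 animals on the log2(normalized count + 1) scale. Among the 36 pairs of tested members, no correlation had an adjusted p under 0.05 (permutation tests, Benjamini-Hochberg over 36 pairs and both coefficients). The pair with the smallest p was NAPRT and NNMT, with Pearson's r = -0.84 (permutation p = 0.00214, adjusted p = 0.0770) and Spearman's rho = -0.88 (permutation p = 0.00161, adjusted p = 0.0770) over 10 animals. Without the 2 animals farthest from the median of NAPRT (chow replicate 3 and HFr replicate 4), r was -0.79. Animals with high NNMT tended to have low NAPRT on both diets. The 2 genes share libraries and their scaling.

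Since NMRK2 separates the diets, its pooled correlations mix 2 clusters of animals and are not given. After the values had been seen, each gene was centered on its mean within each diet and the animals were permuted within diets. In this form NMRK2 and NNMT had r = 0.82 (exact permutation p = 0.00167, adjusted p = 0.0600) and a Spearman's rho of 0.85 (exact permutation p = 0.00931, adjusted p = 0.134) over 10 animals, and r = 0.84 without chow replicates 2 and 4. NAPRT and NNMT had r = -0.84 (exact permutation p = 0.000486, adjusted p = 0.0350) and a rho of -0.90 (exact permutation p = 0.00431, adjusted p = 0.103), and r = -0.76 without HFr replicate 4 and chow replicate 4. NMRK2 and NAPRT had r = -0.84 (exact permutation p = 0.00625, adjusted p = 0.1125). Their rho was -0.80 (exact permutation p = 0.0192, adjusted p = 0.23). On each diet the 3 animals with the most NNMT were also the 3 with the most NMRK2.

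**Figure D3:**
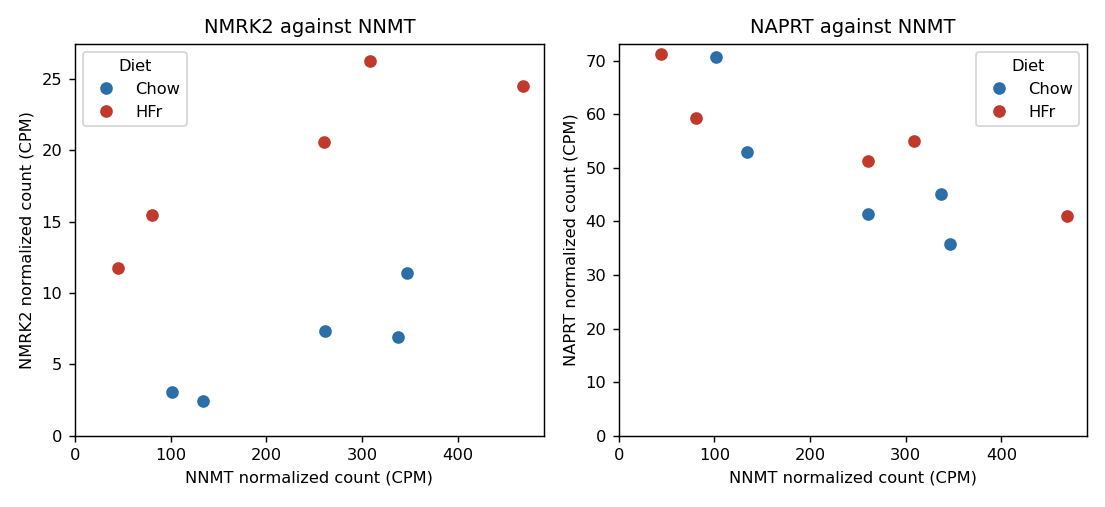
Normalized counts (CPM) of NMRK2 (left) and NAPRT (right) against those of NNMT in the same animal, chow in blue and HFr in red, 1 point per animal. NMRK2 is higher in animals with more NNMT within each diet and, at this scaling, higher in every HFr animal. NAPRT is lower in animals with more NNMT on both diets.

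Other genes of NAD metabolism were read from the same fit, with lists written from general knowledge. The kynurenine pathway makes NAD from tryptophan, and 10 of its 12 listed genes were tested. HFr levels were higher for 6 and lower for 4, with a median log2 fold change of 0.02, and 0 passed an unadjusted 0.05 in edgeR, where 4.29% of all transcripts did. DESeq2, limma and the study's own test, as rerun here, also gave 0, and voom gave 1. TDO2, the hepatic enzyme that opens the pathway, had 122 to 352 normalized counts on the HFr diet and 177 to 240.4 on chow (log2 fold change 0.20, SE 0.25).

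IDO2, a related dioxygenase, had the smallest p of the list. It had 93.8, 53.6, 64.1, 155 and 84.7 normalized counts in HFr replicates 1 to 5 and 249, 121, 124, 80.9 and 122 in chow replicates 1 to 5. Its log2 fold change was -0.63 (SE 0.32, edgeR unadjusted p = 0.0688), and it was -0.31 without chow replicate 1 and -0.92 without HFr replicate 4 (edgeR unadjusted p = 0.00847). KMO and AADAT were at 0.32 and 0.27 on the log2 scale (standard errors 0.29 and 0.25), and KYAT3 and AFMID were at -0.19 and -0.58 (standard errors 0.16 and 0.52). AFMID had no count in HFr replicate 3. QPRT, which forms the mononucleotide at the end of the pathway, had no transcript under that symbol and was not analysed here.

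Sirtuins, poly-ADP-ribose polymerases and NAD glycohydrolases consume NAD and release nicotinamide. Of 19 listed, 13 were tested, 6 higher and 7 lower on the HFr diet, with a median log2 fold change of -0.01. An unadjusted p under 0.05 was found for 2 of the 13, where 4.29% of all transcripts had one in either direction. These were BST1 (lower, where 2.23% of all transcripts were) and SIRT2 (higher, where 2.06% were). None of the 13 passed adjustment in edgeR, DESeq2, limma or voom. BST1, an ectoenzyme of the CD38 family, was lower on the HFr diet, with a mean of 7.89 ± 1.55 normalized counts in HFr animals and 11.9 ± 3.70 in chow animals (SD, n = 5 each). Its log2 fold change was -0.57 (SE 0.25, edgeR unadjusted p = 0.0360). The unadjusted p was 0.05 or more under 9 of 25 alternatives, among them the fits without HFr replicates 1, 2 or 3 or without chow replicates 1 or 5 (edgeR unadjusted p up to 0.0979). CD38 itself was near 0, with means of 0.0840 and 0.275 normalized counts on HFr and chow.

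SIRT2, a mainly cytosolic deacetylase, had 33.9 to 49.3 normalized counts on the HFr diet and 31.3 to 36.8 on chow, or 0.33 on the log2 scale (SE 0.16). Its edgeR p of 0.04998 lay just under the threshold. It was at or above 0.05 under 14 of 25 alternatives, among them the fits without HFr replicates 1, 4 or 5 or without chow replicates 2, 3, 4 or 5 (edgeR unadjusted p up to 0.133). PARP2 and PARP9 were at 0.31 and 0.18 on the log2 scale (standard errors 0.30 and 0.18).

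A list of 14 genes held those that transport, cleave, repair or oxidize NAD(P) and its precursors. It also held the adenylyl transferase NMNAT2, which had no count in any animal. Of the 14, 6 were tested, 1 higher and 5 lower on the HFr diet, with a median log2 fold change of -0.06. In edgeR 0 passed an unadjusted 0.05, where 4.29% of all transcripts did. DESeq2, limma and voom also gave 0. The study's own test, as rerun here, kept 9 of the genes and gave 1, which was ACP2 (equal-variance test, unadjusted p = 0.00332). AOX1, the aldehyde oxidase that oxidizes the methylated nicotinamide made by NNMT, had 954, 715, 1264, 1175 and 1280 normalized counts in HFr replicates 1 to 5 and 1407, 1247, 1869, 1026 and 1637 in chow replicates 1 to 5. Chow replicates 2 and 4 lay within the HFr range, and the log2 fold change was -0.42 (SE 0.24, edgeR unadjusted p = 0.103). ACP2, a lysosomal phosphatase, was at 0.24 (standard error 0.15), and NNT, the mitochondrial transhydrogenase, at -0.22 (standard error 0.22). NUDT12 and NAXE, which hydrolyze and repair the reduced nucleotides, were at -0.07 and -0.06 (standard errors 0.20 and 0.24).

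**Figure D4:**
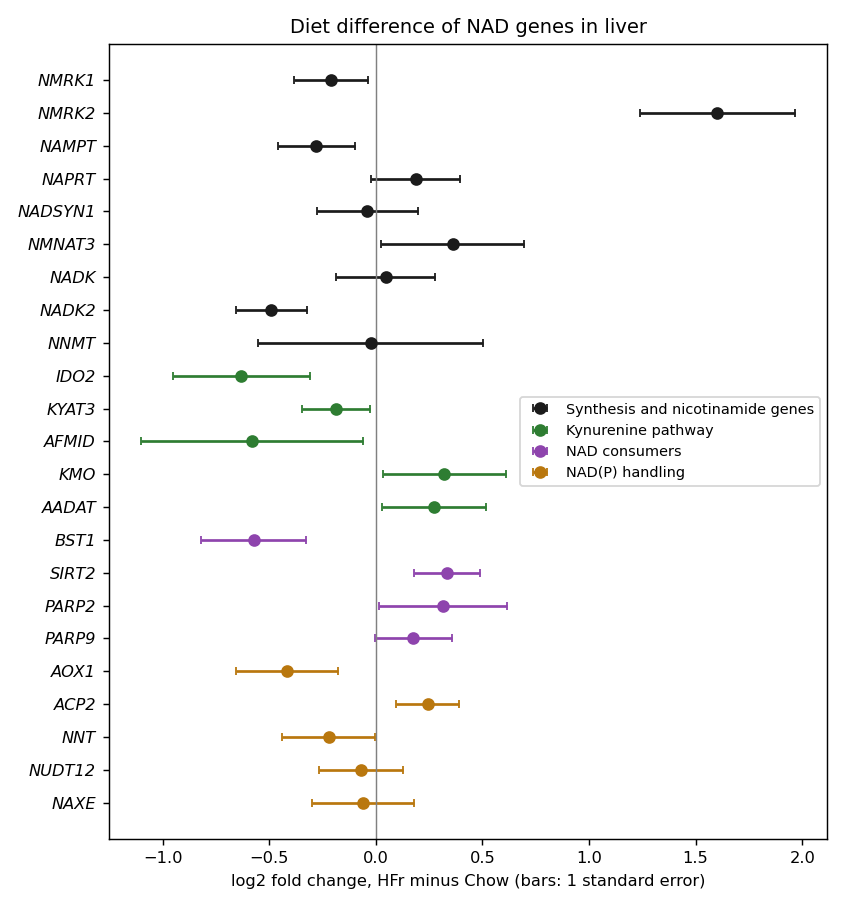
Log2 fold change (HFr minus chow, x axis) with 1 standard error for the 9 tested synthesis and nicotinamide genes (black) and for named genes of the kynurenine (green), NAD consumer (purple) and NAD(P) handling (brown) lists. NMRK2 stands apart at 1.60, NADK2 lies at -0.49, and the other members lie between -0.28 and 0.36.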

How the data were processed

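RNA-Seq libraries of 10 vervet livers were analysed. The authors aligned paired-end reads to ChlSab1.1 (STAR 2.5.3a is among the tools in their processing notes), assigned them to Ensembl release 93 transcripts in Partek Flow (expectation-maximization), and deposited the estimated counts without normalization. The deposited normalized signal values are the same counts with transcripts lacking reads removed, scaled by the authors with TMM. How strand was used in counting is not given in the sources used here.

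Estimated counts were rounded, kept by filterByExpr at a minimum count of 10 and a total of 15, scaled by TMM and tested by quasi-likelihood in edgeR, with diet as the only term and Benjamini-Hochberg adjustment over all tested transcripts. Standard errors (SE) are the log2 fold change over the square root of F. Mitochondrial transcripts took a variable share of each library, which leaves 864571 to 2657103 nuclear counts and limits precision for low genes. The versions used were edgeR 4.0.16, DESeq2 1.42.0 and limma 3.58.1 in R 4.3.3, with Python 3.11.15. The study's own test assumed equal variances on normalized values. Permutation tests were two-sided, exact over 252 assignments for single values and with 100000 resamples for pooled correlations.

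Members and lists were chosen with earlier results of these data known. Named genes are the members and the 5 tested genes with the smallest p in each of the other NAD lists. For 1 of these, an NAD consumer, values are not reported here, but the list counts include it. Marker lists for hepatocytes, skeletal muscle, neutrophils and macrophages, and stellate cells and fibroblasts are given beside results. Lymphocyte markers summed to 13.8 to 24.6 normalized counts on the HFr diet and 13.9 to 18.2 on chow, cholangiocyte markers to 6.00 to 27.8 and 10.1 to 32.7, and endothelial markers to 219 to 239 and 158 to 236. Of 7 endothelial markers 5 were higher on the HFr diet, and KDR was the 1 with an unadjusted p under 0.05. Its log2 fold change was 0.57 (edgeR unadjusted p = 0.0109, adjusted p = 0.9996). Over all transcripts 4.29% passed this threshold in either direction and 2.06% with higher levels. Labels number the animals but do not pair them. P-values set a diet difference or a correlation against the spread between animals.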

Additional observations from a re-analysis of the deposited data

Results flagged for a closer look

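In each diet, the highest and the lowest of the 5 animals were compared with their neighbours for the 24 tested genes named by rule, which gives 48 groups. In 2 groups the gap took more than 0.71 of the whole range, and chance gives about 1 group in 20. IDO2 had 249 normalized counts in chow replicate 1 and 80.9 to 124 in the other chow animals. SIRT2 had 36.8 normalized counts in chow replicate 1 and 31.3 to 31.7 in the other chow animals. The same animal, chow replicate 1, was thus the high value for both genes. No member of the NAD synthesis list had such a value.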

How the results depend on the processing

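NADK2 kept its sign under all 25 alternatives. NMRK2 kept its sign under all 24 of its own, which is no support for it, since it was chosen for its diet difference. The number of members with an unadjusted p under 0.05 holds NMRK2 through its choice, so it supports nothing about that gene. It was 2, and 1 with scaling by library size only (NADK2 lost) or with at least 10 counts required in every animal (NMRK2 not tested). It was 2 without any single animal. The replicate block left 2 members and moved their log2 fold changes to 1.76 (NMRK2) and -0.49 (NADK2). With the block 271 of all transcripts had an unadjusted p under 0.05 instead of 341, SIRT2 had 0.0888 (edgeR unadjusted p), and the other named genes stayed on their side of 0.05. Same-numbered animals correlated between -0.29 and 0.10, so the numbers were not taken as pairs. Over all transcripts, 123 had an unadjusted p under 0.05 with library size only and 756 of 16066 with a count above 0 in any animal, with 260 to 408 when 1 animal was left out. An adjusted p under 0.05 was given to 2 transcripts by DESeq2 and to 1 with library size only, none of them a member. The kynurenine count was 1 instead of 0 with a count above 0 in any animal and with voom, and 0 to 1 with 1 animal left out. The handling count was 1 with the study's test (ACP2). The consumer count fell from 2 to 0 with library size only and limma at a pseudocount of 0.1, and to 1 with a count above 0 in any animal, limma at a pseudocount of 1, the study's test, voom, the replicate block, no mitochondrial transcripts or the mitochondrial covariate, and was 0 to 2 with 1 animal left out. The correlation count was 4 instead of 0 with library size only and 1 when centered on each diet, and 0 without any single animal. Causes were not tested.

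Signs turned for genes near 0. With 1 animal left out the log2 fold change ranged from -0.14 to 0.19 for NADK, from -0.14 to 0.11 for NADSYN1, from -0.45 to 0.24 for NNMT, from -0.17 to 0.045 for NUDT12 and from -0.18 to 0.064 for NAXE. NADSYN1 was at 0.00263 with the study's test, and NNMT was at 0.0116 with it and at 0.0828 with voom. Low counts limit NMNAT1 (at most 3 counts in an animal), NMNAT3 (down to 3) and NMRK2 (down to 6).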
